A study of Mus musculus with 8 samples.

Results

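The genes described here are 9 genes grouped as genes of pulmonary neuroendocrine cells or their secretory apparatus: *Calca*, *Insm1*, *Chga*, *Chgb*, *Scg5*, *Resp18*, *Ncs1*, *Syp* and *Uchl1*. They were chosen by name and not by a measured value, and all 9 were found among the 25965 genes of the deposited table. Lung RNA was sequenced at E18.5, a late embryonic stage, and at P1.5, a postnatal stage, from *Wfdc2* +/+ mice and from *Wfdc2* GFP/GFP mice. Each of the 4 groups had 2 libraries, numbered replicate 1 and replicate 2, and the study describes the *Wfdc2* +/+ mice as littermate controls, without naming which libraries shared a litter. In *Wfdc2* GFP/GFP mice, both alleles carry an IRES-EGFP cassette in place of part of exon 1 and the whole of exon 2 of *Wfdc2*, a secreted whey acidic protein domain gene. The allele was made in TT2 embryonic stem cells, and its selection marker was removed by a cross with CAG-Cre mice. The allele is constitutive and the samples were whole lung. In every group replicate 1 carried *Xist* (4121 to 90980 reads, against 1 to 13 in replicate 2) and replicate 2 the Y-linked *Ddx3y* (972 to 2175 reads, against 0 to 3), so replicate number and sex cannot be told apart, and each group held both.

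Pulmonary neuroendocrine cells are rare airway epithelial cells, single or in clusters at branch points, that store peptides and amines in dense-core granules and release them on stimulation. Their fate is held in check by Notch signalling, and their known products include the calcitonin gene-related peptide CGRP and gastrin-releasing peptide. Airway neurons and chromaffin-type cells use the same secretory machinery, so most of these genes are not specific to neuroendocrine cells in whole-lung RNA. Fewer cells of a type and less RNA in each cell cannot be told apart in such samples.

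Reads behind each deposited value were recovered as whole reads, and libraries held between 19457646 and 37209332 reads in total. Levels are given as reads per 1000000 of that total (RPM) when libraries are compared. A level of 3 reads, used as the limit of detection for counting error only, stands for 0.0806 to 0.154 RPM. The labels were checked first: *Wfdc2* had 8038 and 8791 reads in the E18.5 *Wfdc2* +/+ libraries, 32845 and 10212 in those at P1.5, 0 and 1 in the E18.5 *Wfdc2* GFP/GFP libraries and 12 and 0 in those at P1.5. *Sftpc*, the surfactant protein C gene of alveolar type II cells, was the most abundant of the lung markers in all 8 libraries, at 6444 to 62335 RPM. The neuroendocrine label was borne out in part. *Insm1* had 3 to 24 reads in each library, whereas *Neurod1*, another neuroendocrine transcription factor gene, had 0 reads in all 8 libraries, which allows at most the limit of detection. *Grp*, which encodes gastrin-releasing peptide, had 32 to 447 reads.

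Added over the 9 genes, the level was 26.8 and 27.6 RPM in E18.5 *Wfdc2* +/+, 27.3 and 50.6 RPM in E18.5 *Wfdc2* GFP/GFP, 59.4 and 29.7 RPM in P1.5 *Wfdc2* +/+ and 41.1 and 46.5 RPM in P1.5 *Wfdc2* GFP/GFP. The genotypes overlapped at both stages, and replicate 1 of P1.5 *Wfdc2* +/+ was highest. The largest part of the sum was *Uchl1* or *Ncs1* in every library, at 32.7% to 56.1%, and neither is specific to neuroendocrine cells. To compare genes with each other, reads were divided by the length of the exons in GENCODE (release M21). In RPM per exonic kilobase, the median over 8 libraries was 9.12 for *Uchl1*, 2.68 for *Calca*, 1.59 for *Ncs1*, 0.875 for *Scg5*, 0.832 for *Syp*, 0.589 for *Resp18*, 0.226 for *Chgb*, 0.204 for *Chga* and 0.109 for *Insm1*. The ranges over libraries of all neighbours in that order overlapped. *Ncs1* was the steadiest, with a highest library 1.68 times the lowest, and *Chgb* the least steady, at 28.9 times.

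**Figure D1:**
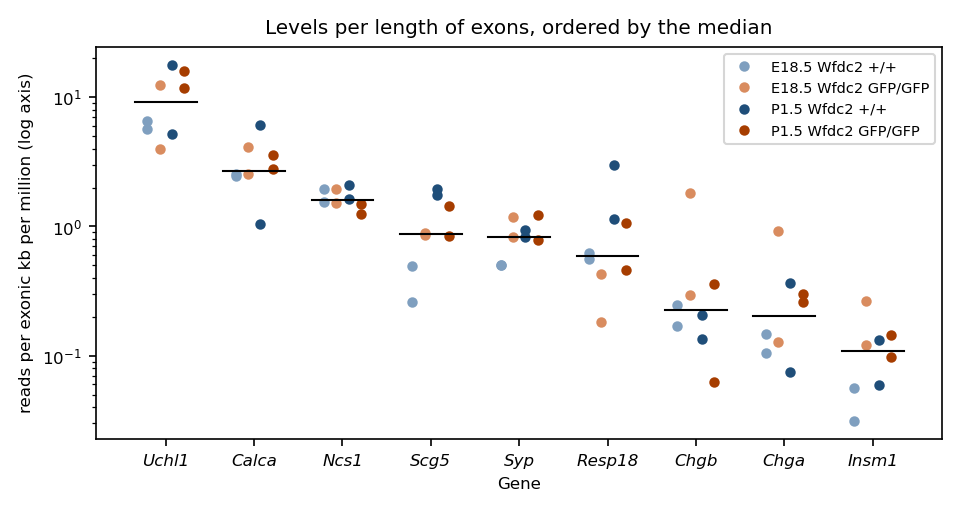
RPM per exonic kilobase (log axis) of the 9 genes, ordered by their median over 8 libraries (black line). Each point is a library, coloured by group. *Uchl1* had the highest median (9.12) and *Insm1* the lowest (0.109), and every pair of neighbours overlapped.

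The chromogranin promoters are shown because *Chga* and *Chgb* shared their highest library, and because cAMP response elements are known elements of granin genes. Sequences are RefSeq promoters on GRCm38.p6, from 250 bases before to 50 bases after the start of transcription, 5′ to 3′ on the gene's strand. Capitals mark 2 motifs: TGACGTCA, the full cAMP response element, and CAGCTG, an E-box core. Both read the same on either strand and they do not overlap each other here.
*Chga*, chr12:102554691-102554990, plus strand: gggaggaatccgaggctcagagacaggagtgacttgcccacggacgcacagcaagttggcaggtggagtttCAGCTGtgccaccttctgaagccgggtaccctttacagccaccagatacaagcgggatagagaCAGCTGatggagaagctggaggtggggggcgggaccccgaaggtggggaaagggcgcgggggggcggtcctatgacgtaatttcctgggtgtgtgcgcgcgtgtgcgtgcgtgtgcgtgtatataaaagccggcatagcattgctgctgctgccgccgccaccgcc
*Chgb*, chr2:132781392-132781691, plus strand: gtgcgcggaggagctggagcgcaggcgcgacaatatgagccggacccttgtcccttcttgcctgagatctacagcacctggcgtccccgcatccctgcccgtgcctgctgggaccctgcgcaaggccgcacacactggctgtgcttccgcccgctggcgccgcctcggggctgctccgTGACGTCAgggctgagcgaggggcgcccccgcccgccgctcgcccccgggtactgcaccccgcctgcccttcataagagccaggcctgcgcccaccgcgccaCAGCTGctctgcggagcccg
*Chga* held 2 copies of CAGCTG and no exact TGACGTCA in this window. Only exact matches were searched, so variants are not marked. The near match tgacgtaa in the *Chga* sequence is such a variant, so absence of the exact letters does not show that *Chga* lacks the element. *Chgb* held TGACGTCA starting 72 bases before the start of transcription and CAGCTG starting 30 bases after it. Of the 9 genes, 8 had a promoter in the table. CAGCTG was found in 4 of the 8 (*Calca*, *Chga*, *Chgb* and *Resp18*) and in 16.3% of all 32851 promoters of this length, and TGACGTCA in 1 of the 8 and in 1.79% of all. A match to these letters is a description of the sequence and not a site of binding.

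*Insm1*, the zinc-finger transcription factor gene of neuroendocrine and endocrine precursors (chr2:146221921-146225016, plus strand, mm10), was the lowest of the 9. It had 6 and 3 reads in E18.5 *Wfdc2* +/+, 14 and 24 in E18.5 *Wfdc2* GFP/GFP, 4 and 8 in P1.5 *Wfdc2* +/+ and 7 and 13 in P1.5 *Wfdc2* GFP/GFP. The 2 genotypes did not overlap at E18.5, where mean levels were 0.135 ± 0.0552 and 0.598 ± 0.314 RPM (SD, n = 2), and overlapped at P1.5.

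*Calca* (chr7:114631480-114636357, minus strand) encodes calcitonin and CGRP by alternative splicing, and gene counts cannot separate the 2 products. Its level was 4.30 and 4.14 RPM in E18.5 *Wfdc2* +/+, 4.33 and 6.91 RPM in E18.5 *Wfdc2* GFP/GFP, 10.3 and 1.75 RPM in P1.5 *Wfdc2* +/+ and 4.71 and 5.98 RPM in P1.5 *Wfdc2* GFP/GFP. The highest and the lowest of the 8 libraries were thus the 2 replicates of 1 group, P1.5 *Wfdc2* +/+, with 224 and 34 reads, a ratio of 5.90 in RPM. Both *Wfdc2* GFP/GFP libraries of that stage lay between them.

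Chromogranins A and B, the granin cargo of dense-core granules, are encoded by *Chga* (chr12:102554969-102565027, plus strand) and *Chgb* (chr2:132781278-132795079, plus strand). *Chga* had 14 and 9 reads in E18.5 *Wfdc2* +/+, 13 and 74 in E18.5 *Wfdc2* GFP/GFP, 22 and 4 in P1.5 *Wfdc2* +/+ and 19 and 21 in P1.5 *Wfdc2* GFP/GFP. *Chgb* had 16 and 21, 30 and 146, 8 and 11, and 4 and 29 reads in the same libraries. Replicate 2 of E18.5 *Wfdc2* GFP/GFP stood above all others for both genes, at 2.50 times the next library in RPM for *Chga* and 5.04 times for *Chgb*. Its own replicate was 7.24 and 6.19 times lower.

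*Scg5*, which encodes 7B2, the granin-like partner of prohormone convertase 2, spans 52.8 kb (chr2:113776362-113829121, minus strand). It had 14 and 24 reads in E18.5 *Wfdc2* +/+, 50 and 41 in E18.5 *Wfdc2* GFP/GFP, 60 and 60 in P1.5 *Wfdc2* +/+ and 52 and 39 in P1.5 *Wfdc2* GFP/GFP. In RPM, *Wfdc2* GFP/GFP was above *Wfdc2* +/+ at E18.5 (1.37 ± 0.0411 against 0.588 ± 0.257, SD, n = 2) and below it at P1.5 (1.79 ± 0.645 against 2.92 ± 0.227), without overlap at either stage.

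*Resp18*, an endocrine secretory-granule protein gene (chr1:75272199-75278415, minus strand), had 22 and 18 reads in E18.5 *Wfdc2* +/+, 7 and 13 in E18.5 *Wfdc2* GFP/GFP, 67 and 23 in P1.5 *Wfdc2* +/+ and 11 and 32 in P1.5 *Wfdc2* GFP/GFP. Both *Wfdc2* GFP/GFP libraries lay below both *Wfdc2* +/+ libraries at each stage, by a narrow margin at P1.5 (1.18 against 1.09 RPM). *Gm28902* overlaps *Resp18* on the other strand. The library kit keeps strand, but whether the counting used it is not given in the sources used here, so reads of such pairs cannot be told apart. The same holds for *Syp* with *Gm14703* and for *Uchl1* with *Uchl1os*.

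*Syp* encodes synaptophysin, a membrane protein of small secretory vesicles (chrX:7638471-7653256, plus strand). It measured 2.64 and 2.60 RPM in E18.5 *Wfdc2* +/+, 4.35 and 6.22 RPM in E18.5 *Wfdc2* GFP/GFP, 4.93 and 4.32 RPM in P1.5 *Wfdc2* +/+ and 6.35 and 4.07 RPM in P1.5 *Wfdc2* GFP/GFP. The E18.5 *Wfdc2* +/+ libraries were the 2 lowest, and the other groups overlapped. *Ncs1*, a calcium sensor gene whose protein the study stains as a marker of ciliated cells (chr2:31245823-31295989, plus strand), measured 7.15 and 9.11 RPM in E18.5 *Wfdc2* +/+, 9.06 and 7.08 RPM in E18.5 *Wfdc2* GFP/GFP, 7.64 and 9.71 RPM in P1.5 *Wfdc2* +/+ and 6.91 and 5.78 RPM in P1.5 *Wfdc2* GFP/GFP, its lowest group.

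*Uchl1*, the ubiquitin hydrolase PGP9.5 that labels neuroendocrine cells and nerves (chr5:66676098-66687231, plus strand), was the most abundant of the 9 per exonic kilobase. Its level was 10.6 and 9.30 RPM in E18.5 *Wfdc2* +/+, 6.50 and 20.2 RPM in E18.5 *Wfdc2* GFP/GFP, 29.1 and 8.48 RPM in P1.5 *Wfdc2* +/+ and 19.2 and 26.0 RPM in P1.5 *Wfdc2* GFP/GFP. As for *Calca* and *Resp18*, its highest library was replicate 1 of P1.5 *Wfdc2* +/+, and the 2 replicates of that group lay on either side of both *Wfdc2* GFP/GFP libraries.

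**Figure D2:**
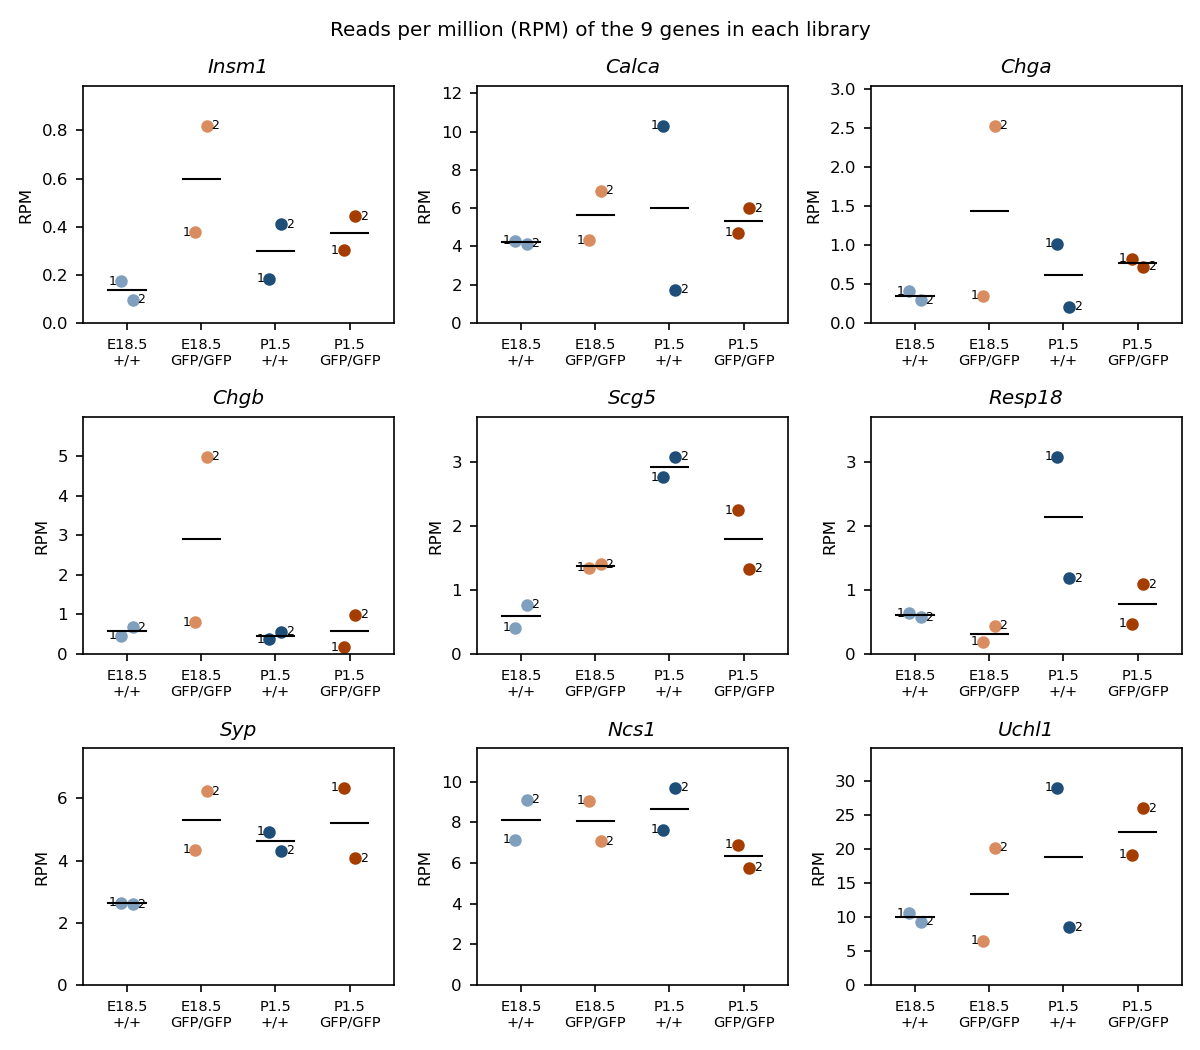
Levels in RPM of each of the 9 genes (vertical axis, starting at 0) in the 8 libraries, by group; numbers beside points are replicate numbers and black lines are group means. Replicate 2 of E18.5 *Wfdc2* GFP/GFP was highest for *Insm1*, *Chga* and *Chgb*, and replicate 1 of P1.5 *Wfdc2* +/+ for *Calca*, *Resp18* and *Uchl1*.

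At E18.5, the comparison of genotypes before birth called none of the genes. *Insm1* showed the largest fitted difference, 4.29-fold higher in *Wfdc2* GFP/GFP, followed by *Chgb* at 3.59-fold and *Chga* at 2.74-fold, and *Resp18* was 2.10-fold lower. The *Resp18* difference was -0.45 on the log2 scale without replicate 1 of *Wfdc2* GFP/GFP and -1.69 without replicate 2. The test was limma's moderated test on deposited log2 RPKM (RPM per kilobase of gene span), adjusted by the Benjamini-Hochberg method over 15627 genes with a threshold of 0.05. Of the 9 genes, 8 passed the filter on low values. The exception was *Scg5*, whose long span gives it a mean of 0.0316 RPKM, and its values come from a fit without the filter. None of the 8 was called, against 0.0192% of all genes tested, and at an unadjusted p-value under 0.05 there were 2, *Insm1* and *Syp*, where 4.37% of all genes passed. For *Insm1* the log2 fold change was 2.10 (SE 0.63, limma adjusted p = 0.735) and for *Syp* 0.99 (SE 0.42, limma adjusted p = 1). In the fit without the filter, *Scg5* was 1.29 higher on the log2 scale (SE 0.41, limma adjusted p = 0.654).

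The log2 fold changes of the other genes at E18.5 were 1.84 for *Chgb*, 1.46 for *Chga*, 0.37 for *Calca*, 0.21 for *Uchl1*, -0.01 for *Ncs1* and -1.07 for *Resp18*. The median of the 8 was 0.68, beside 0.09 over all genes tested. The genotypes did not overlap for 6 of the 9 genes, against 36.0% of all genes tested. *Calca*, *Insm1*, *Chgb*, *Scg5* and *Syp* were higher in both *Wfdc2* GFP/GFP libraries and *Resp18* was lower. For *Chga* and *Chgb* the size of the difference rested on replicate 2 of *Wfdc2* GFP/GFP. Replicate 1 of that group, which held the lowest *Resp18* and *Uchl1* levels, stood apart in other ways: its 6 club cell markers summed to 958 RPM, beside 3080 to 3954 RPM in the other E18.5 libraries, and its 9 lung markers to 9845 RPM, beside 20046 to 25408 RPM. Their part in the differences was not tested. Without replicate 2 of E18.5 *Wfdc2* GFP/GFP and replicate 1 of P1.5 *Wfdc2* +/+, a setting chosen after seeing the data that leaves 1 library in each of those groups, the log2 differences were 0.03 for *Chga*, 0.53 for *Chgb* and 1.54 for *Insm1*.

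At P1.5, after the onset of breathing, none of the 8 genes was called either, against 0.0128% of all genes tested. None had an unadjusted p-value under 0.05, where 10.9% of all genes passed. *Resp18* was 2.65-fold lower in *Wfdc2* GFP/GFP (log2 fold change -1.41, SE 0.69, limma adjusted p = 0.508; -0.71 without replicate 1 of *Wfdc2* +/+ and -2.10 without replicate 2) and *Chga* 1.68-fold higher (0.75, SE 1.03, limma adjusted p = 0.795). The 95% interval for *Calca* ran from -1.39 to 2.03 on the log2 scale around a difference of 0.32, so differences of either sign were compatible with these 2 libraries a group. The remaining log2 fold changes were 0.51 for *Uchl1*, 0.41 for *Insm1*, 0.14 for *Syp*, -0.14 for *Chgb*, -0.45 for *Ncs1* and, without the filter, -0.75 for *Scg5*. Quantile normalization turned *Chgb* to 0.44.

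Genotypes did not overlap for 3 of the 9 genes at P1.5, *Scg5*, *Resp18* and *Ncs1*, all lower in *Wfdc2* GFP/GFP, against 34.0% of all genes tested. The median over the 8 tested genes was 0.23, and that of all genes was -0.20. The median log2 RPKM of a library differed between single libraries, at -0.96 and -0.22 in P1.5 *Wfdc2* +/+ and -0.95 and -0.63 in P1.5 *Wfdc2* GFP/GFP. The genotypes overlapped in it. Quantile normalization brought the median fold change of all genes to 0.02 on the log2 scale and that of the 8 genes to 0.52. Under that scaling the log2 fold changes were 0.58 for *Calca*, 1.30 for *Chga* and -1.16 for *Resp18*, and none was called. When replicate 1 of P1.5 *Wfdc2* +/+ was left out together with replicate 2 of E18.5 *Wfdc2* GFP/GFP, *Calca* (1.60, limma adjusted p = 0.0303) and *Uchl1* (1.40, limma adjusted p = 0.0373) were called, and so were 17.3% of all genes. With replicate 2 left out in its place the *Calca* difference was -0.96. The sign of the genotype difference for *Calca* at P1.5 thus rested on which *Wfdc2* +/+ library was used.

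The interaction, the genotype difference at P1.5 minus that at E18.5, called none of the 8 genes and 0% of all genes tested; 10.2% of all genes had an unadjusted p-value under 0.05, and none of the 8 did. The *Insm1* interaction was -1.69 on the log2 scale (SE 0.89, limma adjusted p = 0.573). *Scg5*, tested without the filter, had -2.05 (SE 0.58, limma adjusted p = 0.308). The smallest p that an exact two-sided permutation test gives for 2 libraries in each group is 0.333, and no such test was used.

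**Figure D3:**
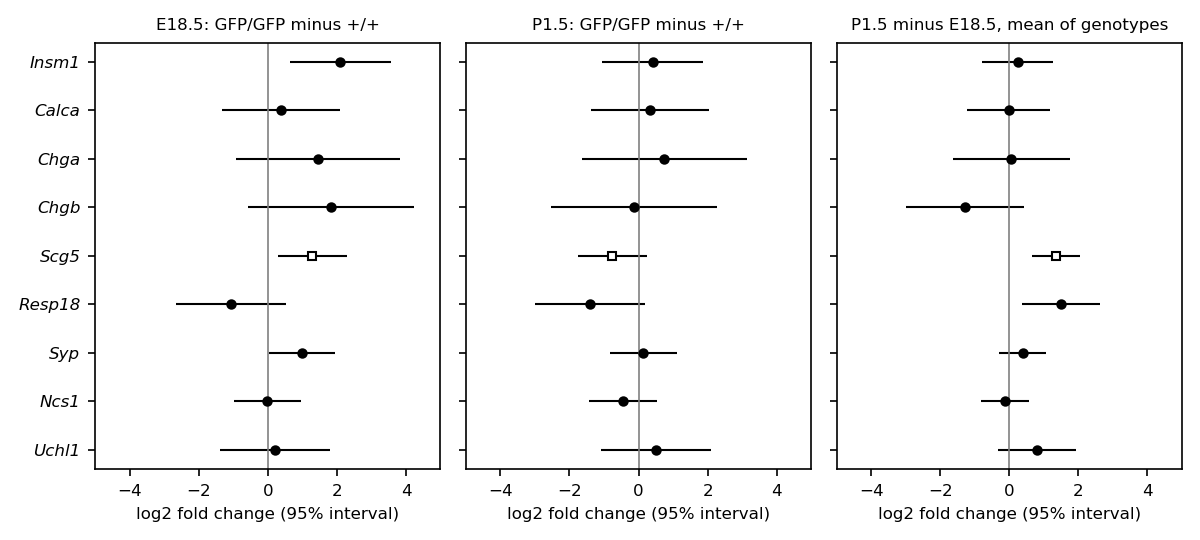
Log2 fold changes of the 9 genes with 95% intervals from limma, *Wfdc2* GFP/GFP minus *Wfdc2* +/+ at E18.5 (left) and P1.5 (middle), and P1.5 minus E18.5 averaged over genotypes (right). Open squares mark *Scg5*, which comes from the fit without the filter on low values; at P1.5 all 9 intervals cross 0.

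Across birth, *Resp18* and *Scg5* were higher at P1.5 than at E18.5, by 2.80-fold and 2.56-fold as the mean of both genotypes, and *Chgb* was 2.44-fold lower, but none passed the adjusted threshold. The *Chgb* change was -0.63 on the log2 scale without replicate 2 of E18.5 *Wfdc2* GFP/GFP and -1.94 without replicate 1. Here 4 libraries stood against 4 and 5.14% of all genes tested were called, none of them among the 8 genes. *Resp18* came closest among those that passed the filter, at a log2 fold change of 1.49 (SE 0.49, limma adjusted p = 0.0753). *Scg5* without the filter had 1.36 (SE 0.29, limma adjusted p = 0.0749). The others were 0.81 for *Uchl1*, 0.39 for *Syp*, 0.24 for *Insm1*, 0.06 for *Chga*, -0.02 for *Calca*, -0.12 for *Ncs1* and -1.29 for *Chgb*. The median over all 8 genes tested was 0.15 against -0.32 for all genes tested, and with quantile normalization 0.46 against -0.05. *Calca* and *Ncs1* turned to 0.34 and 0.33 under that scaling.

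No gene of the 9 had all 4 libraries of a stage above all 4 of the other, which 20.6% of all genes tested did. Leaving out replicate 2 of P1.5 *Wfdc2* +/+ called 2 of the 8, *Resp18* and *Uchl1*, together with 45.6% of all genes. Within *Wfdc2* +/+, 0.0576% of all genes were called and none of the 8. *Insm1*, *Scg5*, *Resp18* and *Syp* were higher in both P1.5 libraries there, beside 50.7% of all genes that did not overlap. The *Scg5* change in *Wfdc2* +/+ was 2.38 (SE 0.41, limma adjusted p = 0.116). Within *Wfdc2* GFP/GFP, 4.55% of all genes were called and again none of the 8. There *Resp18* was higher and *Ncs1* lower without overlap, beside 67.1% of all genes, and *Scg5* differed by 0.33. Gene span moved with the libraries. In the deposited values, genes were divided by span into 4 equal bins, and the log2 deviation from the gene's own mean over the 8 libraries was taken. The bin of longest genes had a median deviation of 0.72 in replicate 1 of E18.5 *Wfdc2* GFP/GFP. It had -0.64 and -0.65 in replicate 1 of P1.5 *Wfdc2* +/+ and *Wfdc2* GFP/GFP. The bin of shortest genes had -0.43, 0.30 and 0.24. *Calca* and *Insm1* lie in the bin of shortest genes and *Ncs1* in that of the longest. *Scg5*, which was not among the genes binned, is longer than *Ncs1*. In the bin of longest genes the other libraries had 0.31 and 0.30 (E18.5 *Wfdc2* +/+), 0.15 (E18.5 *Wfdc2* GFP/GFP replicate 2), 0.24 (P1.5 *Wfdc2* +/+ replicate 2) and -0.42 (P1.5 *Wfdc2* GFP/GFP replicate 2), so its mean was higher in *Wfdc2* GFP/GFP at E18.5 and lower at P1.5, as for *Scg5*, with overlap between genotypes at both stages. The part of span in these differences was not tested.

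The regulators and partners of the 9 genes were read from lists of the pathway. Of 9 neuroendocrine transcription factor genes 3 passed the filter, and none was called in any comparison. Of 15 Notch pathway genes 13 were tested and none was called, *Hes1*, a transcriptional repressor and Notch target, changing by 0.40 across birth (limma adjusted p = 0.313). Of 5 Slit-Robo genes, which govern clustering of neuroendocrine cells, 4 were tested and none was called.

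Among other peptides and amine synthesis genes, 6 of 12 were tested and none was called. *Grp* had group means of 6.41 and 5.65 RPM at E18.5, and at P1.5 had 173 and 32 reads in *Wfdc2* +/+ against 374 and 447 in *Wfdc2* GFP/GFP. That difference was 4.34-fold (log2 fold change 2.12, SE 0.67), the groups did not overlap, and it missed the threshold (limma adjusted p = 0.343). Without replicate 1 of P1.5 *Wfdc2* +/+ the *Grp* difference was 3.26 and was called (limma adjusted p = 0.0472), and without replicate 2 it was 0.98. *Ddc*, aromatic amino acid decarboxylase for serotonin and dopamine, had 744 to 878 reads at E18.5 and 80 to 397 at P1.5, a change of -1.77 (SE 0.53, limma adjusted p = 0.0662). It was called without replicate 2 of P1.5 *Wfdc2* +/+ (-2.39, limma adjusted p = 0.00506), with a replicate block within each stage (0.0193) and with voom on genes of at least 10 reads (0.0294), and was -1.15 without replicate 1 of P1.5 *Wfdc2* +/+. Of the prohormone-processing and granin genes, 6 of 11 were tested and none was called. *Cpe*, carboxypeptidase E, was among the more abundant, at 1425 to 2251 reads, with a change across birth of 0.68 (limma adjusted p = 0.0860) that was called under median centring (1.15, limma adjusted p = 0.0444) and quantile normalization (1.15, limma adjusted p = 0.0463), and *Pcsk1*, prohormone convertase 1, did not pass the filter and had 17 to 72 reads. The regulated exocytosis list had 7 of 15 genes tested and that of other neuroendocrine markers 5 of 7, with none called.

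Among the lists of this pathway, genes passed the test in that of peptide receptors, for CGRP and for the related peptide adrenomedullin. Of 8 peptide receptor genes 5 were tested, and across birth 2 rose, beside the 5.14% of all genes, and none fell. *Ramp1*, which pairs with CALCRL to form the CGRP receptor, had 13.9 and 12.8 RPM in E18.5 *Wfdc2* +/+, 5.86 and 18.7 RPM in E18.5 *Wfdc2* GFP/GFP, 33.2 and 45.4 RPM in P1.5 *Wfdc2* +/+ and 49.6 and 67.0 RPM in P1.5 *Wfdc2* GFP/GFP. All 4 P1.5 libraries were above all 4 at E18.5, and the change was 4.01-fold (log2 fold change 2.00, SE 0.40, limma adjusted p = 0.0396). *Ramp3*, which turns CALCRL into an adrenomedullin receptor, had 11 to 42 reads at E18.5 and 66 to 560 at P1.5, a change of 16.0-fold (log2 SE 0.59, limma adjusted p = 0.0213). Both calls were lost on leaving out either E18.5 *Wfdc2* +/+ library, either P1.5 *Wfdc2* GFP/GFP library or replicate 1 of E18.5 *Wfdc2* GFP/GFP, with log2 changes over all single libraries left out of 1.58 to 2.42 for *Ramp1* (limma adjusted p up to 0.151) and 3.34 to 4.65 for *Ramp3* (up to 0.0860). That for *Ramp1* was also lost without the filter on low values (limma adjusted p = 0.0664), and that for *Ramp3* with 1 added to RPKM (0.0594). Both were lost with voom and the replicate block (adjusted p = 0.0610 for *Ramp1* and 0.0709 for *Ramp3*, voom and limma). Both were also lost with the replicate block and no filter (limma adjusted p = 0.0712 and 0.0613). *Calcrl*, their shared receptor, was not called with all 8 libraries. Its log2 change across birth was -0.93 without replicate 2 of P1.5 *Wfdc2* +/+ and -0.35 without replicate 1. *Calcrl* stood at 399 ± 21.3 and 263 ± 24.4 RPM at E18.5 and at 346 ± 187 and 135 ± 19.6 RPM at P1.5 (SD, n = 2, *Wfdc2* +/+ first), with a genotype difference at P1.5 of -1.25 (SE 0.41, limma adjusted p = 0.347). Without replicate 1 of P1.5 *Wfdc2* +/+ the *Calcrl* difference was -1.83 and without replicate 2 it was -0.67. It was called when replicate 1 of P1.5 *Wfdc2* +/+ was left out together with replicate 2 of E18.5 *Wfdc2* GFP/GFP (limma adjusted p = 0.0277). These receptor genes are known mainly from vessels and other cells that receive the peptides.

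**Figure D4:**
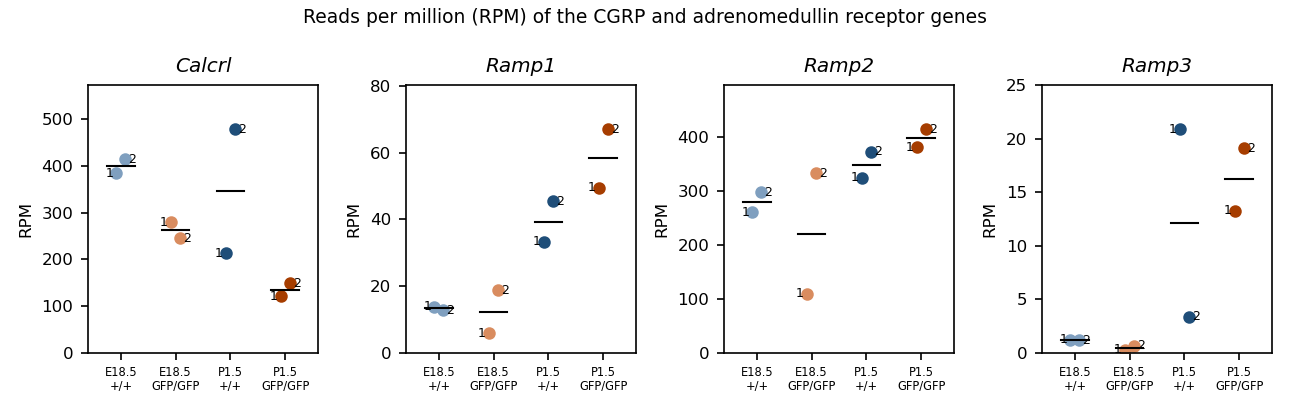
Levels in RPM of *Calcrl*, *Ramp1*, *Ramp2* and *Ramp3* in the 8 libraries by group (vertical axis starting at 0); numbers are replicate numbers and black lines group means. *Ramp1* and *Ramp3* lay higher in all 4 P1.5 libraries than in all 4 E18.5 libraries.

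In the libraries that stood apart, some markers of other cells that carry these genes were high as well. In replicate 2 of E18.5 *Wfdc2* GFP/GFP, where *Insm1*, *Chga* and *Chgb* were highest, *Th* and *Dbh*, the catecholamine synthesis genes of sympathetic neurons and chromaffin-type cells, had 84 and 95 reads, against 9 and 3 in its replicate and at most 15 elsewhere. *Tubb3* had 255 reads there against 60, and *Ina* 62 against 9. Summed over the 15 neuron markers, the level was 34.8 and 42.2 RPM in E18.5 *Wfdc2* +/+, 26.9 and 85.7 RPM in E18.5 *Wfdc2* GFP/GFP, 210.2 and 100.4 RPM in P1.5 *Wfdc2* +/+ and 63.6 and 69.6 RPM in P1.5 *Wfdc2* GFP/GFP. *Stmn2* was the most abundant in all libraries but replicate 1 of P1.5 *Wfdc2* +/+, and no neuron marker was at 0 at E18.5. In replicate 2 of E18.5 *Wfdc2* GFP/GFP the atrial muscle gene *Nppa* had 4661 reads, against 1 in its replicate and at most 542 elsewhere. The 6 cardiac markers summed to 683 RPM there against 182 in its replicate. They summed to 246 and 121 RPM in E18.5 *Wfdc2* +/+ and to 622, 271, 547 and 775 RPM in the P1.5 libraries. In replicate 1 of P1.5 *Wfdc2* +/+, where *Calca*, *Resp18* and *Uchl1* were highest, *Prph*, a neurofilament gene of peripheral neurons, had 3536 reads against 20 in its replicate and made up 77.5% of the neuron marker sum. *Th*, *Dbh*, *Chat* and *Nefl* were at 0 in that library. *Tubb3* had 5 reads there against 8 in its replicate, *Ina* 1 in each and *Phox2a* 2 against 0. The high level of *Prph* was thus not shared by the neuron markers as a set. The part of these cells in the levels of the 9 genes was not tested.

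**Figure D5:**
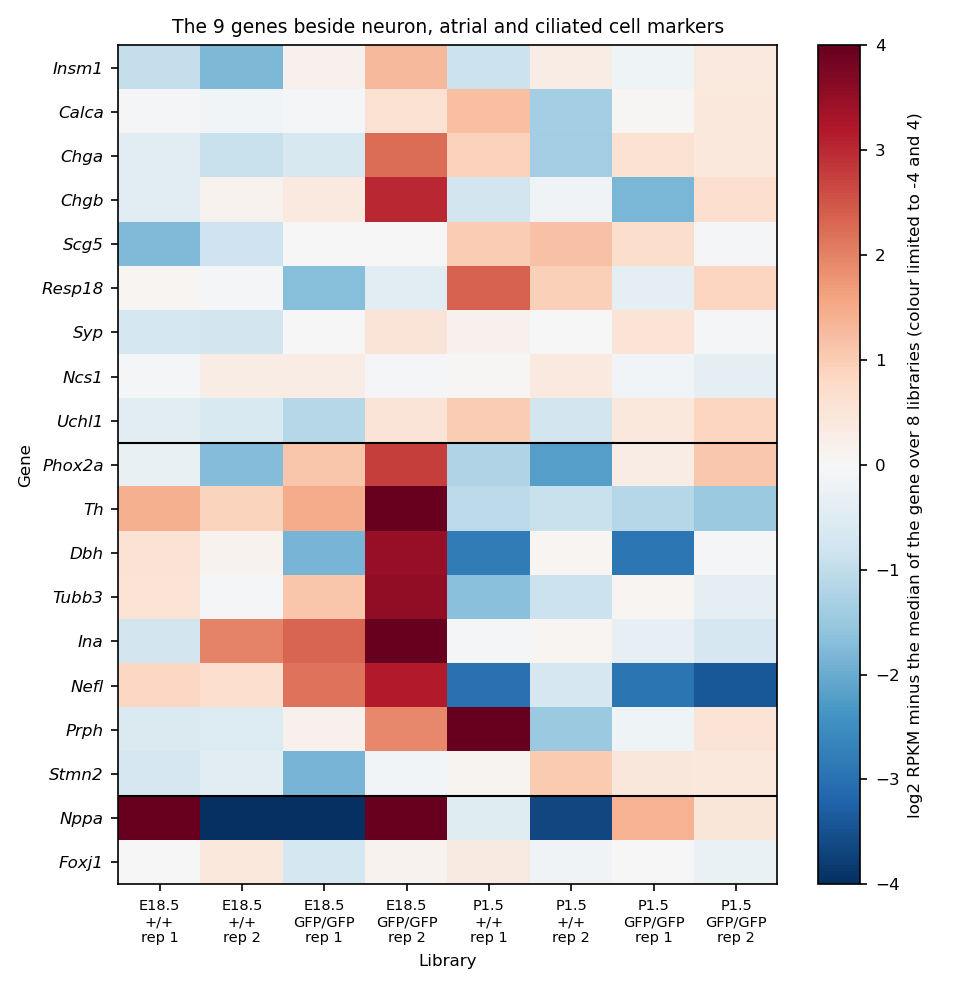
Log2 RPKM minus the median of each gene over the 8 libraries (colour, limited to -4 and 4) for the 9 genes (top), neuron markers (middle) and the atrial gene *Nppa* with the ciliated cell gene *Foxj1* (bottom). Replicate 2 of E18.5 *Wfdc2* GFP/GFP is high for *Chga*, *Chgb*, *Th*, *Dbh*, *Tubb3* and *Ina* together, and replicate 1 of P1.5 *Wfdc2* +/+ for *Prph*.

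Of the 15 neuron markers 7 were tested, and across birth none rose. *Nefl*, the neurofilament light chain, fell, with 16 to 86 reads at E18.5 and 0 to 4 at P1.5 (limma adjusted p = 0.0158). The call for *Nefl* held with reads under 3 raised to 3, at a change of -2.94 (limma adjusted p = 0.0118). *Prph* was not called (limma adjusted p = 0.617). Schwann cell markers had 6 of 8 tested and 1 lower, *Foxd3*, with 5 to 9 reads at E18.5 and at most 1 at P1.5, a call lost on the same floor (limma adjusted p = 0.252). Leaving out any of the same 5 single libraries as for *Ramp1* ended the calls for *Nefl* (limma adjusted p up to 0.0703) and *Foxd3* (up to 0.123). Within *Wfdc2* GFP/GFP *Nefl* and *Foxd3* were also called lower, and *Ramp3* higher, of which *Foxd3* (limma adjusted p = 0.0610) and *Ramp3* (0.0564) were lost with the replicate block. The call for *Nefl* within *Wfdc2* GFP/GFP was lost with voom (adjusted p = 0.0518, voom and limma) and without single libraries (limma adjusted p up to 0.130).

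Of the markers of other airway epithelium, some were called across birth, beside 5.14% of all genes tested. Of 7 ciliated cell markers tested, *Tppp3* rose (2.10, limma adjusted p = 0.0446), *Ccdc39* fell (-2.39, limma adjusted p = 0.0253) and *Foxj1*, the master regulator of motile cilia, stood at 0.01 (limma adjusted p = 0.975). Of 6 club cell markers, *Scgb1a1* rose 19.6-fold (4.29, limma adjusted p = 0.0330) and *Aldh1a1* 3.01-fold (1.59, limma adjusted p = 0.0310). Among 4 basal cell markers *Krt14* rose (2.02, limma adjusted p = 0.0394). The other 3 basal cell markers had negative changes, none of them called, and the median of the 4 was -0.49. Cardiac muscle and lung markers had none called as the mean of both genotypes, *Sftpc* changing by 1.75 (limma adjusted p = 0.0672, but 0.0470 with the 3-read floor, 0.0400 with a filter at 0.5 RPKM and 0.0249 with voom on genes of at least 10 reads), and *Sftpa1* rose within *Wfdc2* GFP/GFP (2.50, limma adjusted p = 0.0459), as did *Scgb1a1*, whereas *Ccdc39* fell. With the replicate block the calls within *Wfdc2* GFP/GFP for *Sftpa1* (limma adjusted p = 0.0610; also lost without the filter, 0.0605, with quantile normalization, 0.0753, with voom, 0.0519, and without single libraries, up to 0.225, at changes of 1.88 to 3.12), *Scgb1a1* (0.0639) and *Ccdc39* (0.0608) were lost, and so were those across birth for *Tppp3* (0.0657) and *Krt14* (0.0572). Without the filter, the calls across birth for *Tppp3* (limma adjusted p = 0.0808), *Scgb1a1* (0.0617), *Aldh1a1* (0.0527) and *Krt14* (0.0608) were lost. With voom and the replicate block, these and that for *Ccdc39* were lost (adjusted p = 0.0706 to 0.0787, voom and limma). Across birth, the calls for *Tppp3*, *Ccdc39*, *Scgb1a1*, *Aldh1a1* and *Krt14* were each lost on leaving out either E18.5 *Wfdc2* +/+ library or either P1.5 *Wfdc2* GFP/GFP library. Replicate 1 of E18.5 *Wfdc2* GFP/GFP also ended them except for *Scgb1a1*, and replicate 1 of P1.5 *Wfdc2* +/+ ended those for *Tppp3*, *Scgb1a1* and *Krt14*. The *Scgb1a1* change was 3.33 without replicate 1 of E18.5 *Wfdc2* GFP/GFP and 5.25 without replicate 2.

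Across the 8 libraries, log2 RPKM of *Chga* went with that of *Uchl1* (Pearson r = 0.78) and *Calca* (r = 0.77), and *Ncs1* went against *Uchl1* (r = -0.77). The libraries differ in stage, genotype, depth and the bias with gene span, and these values are given as a description over 8 points. When the search was kept to mean levels from 0.5 RPKM upwards, the 5 most like *Calca* were *Abhd1* (r = 0.92), *Acy1* (0.91), *Cd164l2* (0.89), *Tmem38b* (0.88) and *Trib3* (0.87), and those most like *Chga* included *4933404M02Rik* (0.97), *Acy1* (0.91), *Hspb7* (0.90) and *Cisd3* (0.88).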

How the data were processed

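Whole-lung RNA (8 libraries, 2 libraries in each of 4 groups, from the labels) was sequenced with a strand-keeping kit. Per the submitters' notes and the study's methods, reads passed CASAVA 1.8 and Trim Galore 0.4.0, were aligned to mm10 with TopHat2 2.1.1 and were counted per gene in SeqMonk. The authors deposited log2 RPKM computed on the full span of each gene, introns included. Genes with no read carry a value worth 0.9 read. Low values were whole multiples of 1 read in each library (99.86% to 99.96% of values within 0.02), which gave reads and totals. Limits of detection cover counting error only, and the 95% intervals come from limma's spread between libraries. limma 3.58.1 (R 4.3.3) with a mean-variance trend was fitted to the deposited values of 15627 genes whose mean reached 0.05 RPKM, with 4 group means and Benjamini-Hochberg adjustment per comparison over all genes tested. Alternatives were pseudocounts, no filter, median centring, quantile normalization, voom on recovered reads, a replicate block, a 3-read floor and leaving out libraries. The script was tested on simulated data. The 2 libraries of each group differ in sex-linked RNA and so come from different animals, but whether each is 1 animal or a pool is not given in the sources used here.

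All 9 genes were named whatever they showed. From the other lists every gene past the threshold was named (at most 4 per list and comparison) with a set of fixed names, and the 5 genes most correlated with *Calca* and with *Chga* among those whose mean reached 0.5 RPKM. Other genes named were chosen after their values were seen: *Th*, *Dbh*, *Tubb3*, *Ina*, *Nppa*, *Nmb*, *Xist* and *Ddx3y*. The 9 genes and the lists were chosen with earlier results of these data known. *Piezo2* was not analysed here. Some genes that these rules name are not reported here.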

Additional observations from a re-analysis of the deposited data

Results flagged for a closer look

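Of the 9 genes, *Scg5* was the one whose genotype difference took opposite signs at the 2 stages in every library. At E18.5 each *Wfdc2* GFP/GFP library exceeded each *Wfdc2* +/+ library, at P1.5 the order was the opposite, and the genotype difference at P1.5 minus that at E18.5 was -2.05 on the log2 scale (SE 0.58, 95% interval -3.45 to -0.65). It did not pass the adjusted threshold in the fit without the filter (limma adjusted p = 0.308). Of all genes tested, 36.0% did not overlap between genotypes at E18.5 and 34.0% at P1.5, in either direction. The share with opposite orders at the 2 stages was not counted. *Scg5* was flagged by this pattern, so the unadjusted interval is no separate support for it.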

How the results depend on the processing

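Across birth 803 genes were called in all, and from 28 (without replicate 1 of P1.5 *Wfdc2* GFP/GFP) to 7125 (without replicate 2 of P1.5 *Wfdc2* +/+) on leaving out single libraries. Of 1525 log2 fold changes 1243 kept their direction and side of the threshold, 190 lost a call, 38 gained one and 54 changed sign. At an adjusted p under 0.1, 1 of the 8 genes was called across birth (*Resp18*), with 31.7% of all genes. Leaving out each library in turn, 0 to 2 were called across birth. Without both replicate 2 of E18.5 *Wfdc2* GFP/GFP and replicate 1 of P1.5 *Wfdc2* +/+, chosen after seeing the data and with lone libraries assumed to vary like the others, 2 were called between genotypes at P1.5, 2 across birth (38.6% of all genes), 2 across birth within *Wfdc2* GFP/GFP (50.3%) and 2 for the interaction (24.5%). The causes were not tested.

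The replicate block called none of the 8 genes in any comparison, and 287 genes across birth against 803 without it, 125 against 711 within *Wfdc2* GFP/GFP, 0 against 9 within *Wfdc2* +/+, 0 against 2 at P1.5 and 0 against 3 at E18.5. A replicate block within each stage called none of the 8 genes and 4990 genes across birth, 4160 within *Wfdc2* GFP/GFP, 105 within *Wfdc2* +/+, 9 at P1.5 and 1 at E18.5. Same-numbered libraries shared deviations within a stage (r = 0.23 and 0.21) but not across stages (-0.29 to 0.08), so the numbers were not taken as pairs. voom on genes of at least 10 reads, chosen after seeing the data, called 3447 genes across birth, 2587 within *Wfdc2* GFP/GFP and 1 between genotypes at P1.5, and voom with the replicate block called 77, 0 and 0. voom on the genes of the limma fit called 685 genes across birth, 129 within *Wfdc2* GFP/GFP and 0 between genotypes, *Wfdc2* included (adjusted p = 0.137 and 0.184). Quantile normalization called 1278, 706 and 49 across birth, within *Wfdc2* GFP/GFP and within *Wfdc2* +/+.

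Signs changed between genotypes at P1.5 for *Insm1* (-0.17 without both libraries) and *Chgb* (0.057 with 0.1 added to RPKM, 0.011 with 1 added, 0.059 with median centring, 0.44 with quantile normalization), and at E18.5 for *Ncs1* (0.17 without both) and *Uchl1* (-0.0012 with median centring, -0.036 with quantile normalization, -0.61 without both). Across birth they changed for *Calca* (0.010 with 0.1 added, 0.056 with 1 added, 0.45 with median centring, 0.34 with quantile normalization, 0.011 with voom, 0.053 with voom and the replicate block, 0.010 with voom on genes of at least 10 reads), *Insm1* (-0.0092 with 1 added), *Chga* (-0.047 with 0.1 added, -0.023 with 1 added), *Ncs1* (0.35 with median centring, 0.33 with quantile normalization), *Grp* (-0.16 without both), *Prph* (-0.47 without both), *Foxj1* (-0.25 with quantile normalization) and *Sftpc* (0.00 with quantile normalization, where it held the highest rank), and within *Wfdc2* GFP/GFP for *Syp* (0.64 with median centring, 0.76 with quantile normalization, 0.22 without both).

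Leaving out each library in turn, the log2 fold change at P1.5 ran from -0.96 to 1.60 for *Calca*, -0.17 to 0.99 for *Insm1*, -0.40 to 1.90 for *Chga*, -1.40 to 1.12 for *Chgb*, -0.18 to 0.46 for *Syp* and -0.38 to 1.40 for *Uchl1*, and at E18.5 from -0.19 to 0.17 for *Ncs1* and -0.61 to 1.03 for *Uchl1*. Across birth it ran from -0.66 to 0.62 for *Calca*, -0.046 to 0.53 for *Insm1* (0.81 without both libraries), -0.65 to 0.77 for *Chga*, -0.24 to 0.90 for *Grp*, -0.91 to 2.75 for *Prph* and -0.19 to 0.22 for *Foxj1*, and within *Wfdc2* GFP/GFP from -0.36 to 0.29 for *Syp*. With 3 to 24 reads for *Insm1* and 4 to 74 for *Chga*, counting error alone limits what these libraries can show.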

Other observations

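*Nmb*, which encodes the peptide neuromedin B, had 1118 reads in replicate 1 of P1.5 *Wfdc2* +/+ and 94 in its replicate, beside 80 to 238 in the other 6 libraries. That is the library in which *Calca*, *Resp18* and *Uchl1* were highest. The protein-coding gene *Sec11a* overlaps *Nmb* on the same strand, so reads in the overlap cannot be told apart in these counts, even by strand. *Nmb* was not called across birth (log2 fold change 1.63, SE 0.67, limma adjusted p = 0.117) or between genotypes at P1.5 (-1.04, SE 0.95, limma adjusted p = 0.742).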
